A study of Mus musculus with 10 samples.

Results

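Plasma cell differentiation genes were followed in Emu-myc B-cell lymphomas of mice without Suv39h1, untreated and after exposure to Adriamycin (ADR, doxorubicin). The genes were 10 of the 18193 genes with a named probe set on the arrays: Prdm1, Xbp1, Irf4, Sdc1, Tnfrsf17, Tnfrsf13b, Ell2, Creb3l2, Slamf7 and Sec11c. They were chosen by name, with earlier results of these data known, and for each the probe set of the highest mean signal was used. All arrays hold total RNA of primary lymphoma cells from lymph nodes, genotype Emu-myc;Suv39h1-/-, in which the Emu enhancer drives Myc in the B lineage. All cells, untreated ones included, carried a retroviral Bcl2 (MSCVpuro), had been selected with puromycin and grew on irradiated NIH 3T3 fibroblasts. The untreated group and the ADR group hold 5 arrays each, 1 per lymphoma (lymphoma_5783, lymphoma_7890, lymphoma_9250, lymphoma_1032 and lymphoma_4936). ADR was given in culture at 0.05 µg/ml for 5 days. The age of the mice is not given in the sources used here. There is no group with Suv39h1 or without Bcl2 among these arrays. The level of Suv39h1 itself was not analysed here.

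A B cell becomes a plasma cell when Irf4 and Prdm1, which encodes the repressor Blimp-1, shut down B-cell regulators such as Pax5, Bcl6 and Bach2. Blimp-1 also represses Myc in this transition. Xbp1, spliced by the ER stress sensor Ern1, then builds up the secretory pathway, and Ell2 favours the secreted form of the antibody heavy chain. Tnfrsf17 (BCMA), Tnfrsf13b (TACI), Sdc1 (CD138) and Slamf7 are surface proteins of plasma cells.

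Levels are log2 array signals, so a difference of 1 is a 2-fold difference. Changes are ADR minus untreated within a lymphoma. Genes above the median of the table, 4.43, on at least 5 arrays were tested, which left 11472 genes and 9 of the 10 plasma cell genes. Tnfrsf17, above it on 2 arrays, is given by its values. Array medians lay between 4.43 and 4.50 except on the ADR array of lymphoma_1032, at 4.15. All 11 B-cell markers with a probe set passed the filter, 10 of them on all arrays. Their mean level was lowest in lymphoma_1032 (8.02), then 8.73 in lymphoma_4936, 8.95 in lymphoma_7890, 9.24 in lymphoma_9250 and 9.82 in lymphoma_5783. Pre-B cell markers had a mean over both arrays of 6.72 in lymphoma_5783 and of 5.26 to 5.62 in the others. Untreated, the mean was 6.12 in lymphoma_5783, 6.10 in lymphoma_4936 and 5.14 to 5.35 in the others. The change with ADR was 1.20 in lymphoma_5783 and -0.97 in lymphoma_4936. Of the 11 B-cell markers, 8 had their lowest mean in lymphoma_1032, where 37.1% of all genes tested did. With each array centred on its median these were 7 of 11 and 24.7%. Cd72, Blk and Ptprc were not lowest there. The B-cell surface gene Ms4a1 (CD20) had the widest range of lymphoma means among these markers. Its signals were 5.09 and 4.79 in lymphoma_1032 against 7.87 to 11.15 on the other arrays.

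Some of these genes are also expressed outside the B lineage, and markers of other cells differed between the cultures. The mean of 15 macrophage markers ranged from 4.71 to 8.18 on untreated and from 4.83 to 8.20 on ADR arrays. Averaged over both arrays of a lymphoma, it was 8.19 in lymphoma_7890, 7.40 in lymphoma_1032, 7.11 in lymphoma_5783, 4.98 in lymphoma_9250 and 4.77 in lymphoma_4936. The summed signal of that list ranged from 9.70 to 14.29 (log2) untreated and from 10.17 to 15.07 with ADR, and 10 of the 15 passed the filter, 6 of them on all arrays, while Cd163 was not above the table median on any array. The mean of 12 fibroblast markers was 6.98 in lymphoma_5783, 6.32 in lymphoma_1032 and 5.41 to 5.57 in the others, with summed signals of 10.47 to 13.03 untreated and 10.85 to 13.32 with ADR, and 8 of the 12 passed the filter. T-cell markers had means of 5.01 to 5.93 on all arrays; 6 of 8 passed the filter, 5 of them on all arrays, and Cd3g was below the table median throughout. NK-cell markers lay between 3.62 and 3.84, and 1 of 6 passed the filter, with Ncr1, Klrk1, Eomes and Nkg7 below it throughout. Neutrophil markers had a mean of 6.29 in lymphoma_1032 and of 4.04 to 4.58 in the others, and 2 of 8 passed the filter, both on all arrays, with S100a9, Mpo and Camp below it throughout. Dendritic cell markers had means of 5.08 to 5.80 on all arrays, and 5 of 8 passed the filter, with Xcr1 and Cd209a below it throughout. The part of these cells in the results below was not tested.

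None of the plasma cell genes passed the test for a change with ADR, while 4 of them passed the test for a difference between lymphomas. With ADR 0 of 9 passed an adjusted p of 0.05 in the paired limma fit, where 0 of 11472 genes (percent called 0.0 in each direction) passed. At an unadjusted p below 0.05 there were 0 of the 9, where 8.48% of all genes tested were found (3.97% higher and 4.52% lower). The smallest adjusted p among them was 0.579 and the smallest of any gene 0.551. Of all 10 genes 7 were higher and 3 lower on average, with a median change of 0.11, where 44.8% of the genes tested were higher and the median change of all of them was -0.024. None of the 10 had 1 sign in all 5 lymphomas, which 9.49% of the genes tested had (4.67% higher and 4.82% lower), and none had groups that did not overlap (0.357%).

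**Figure D1:**
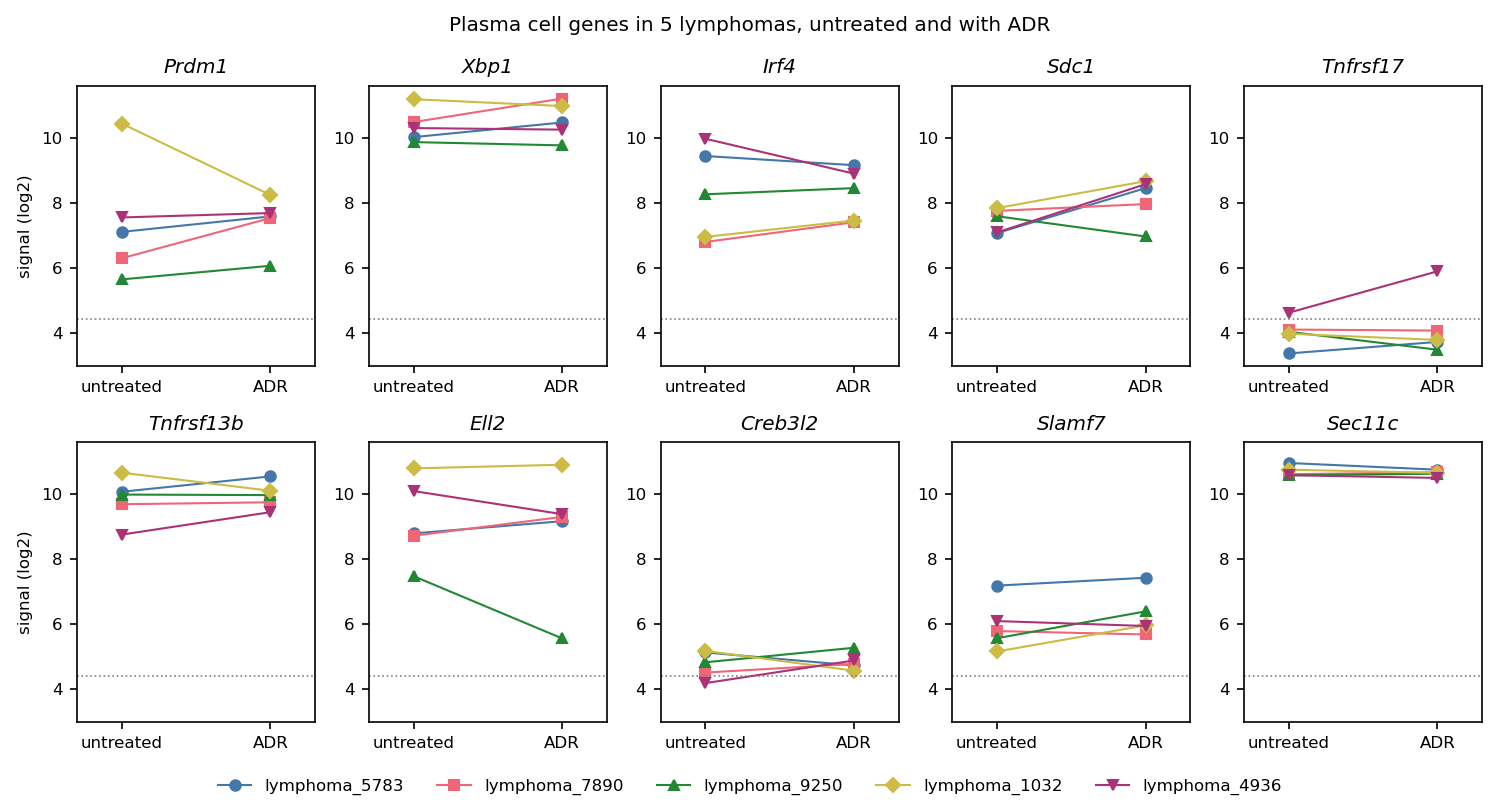
Signal (log2, vertical axis) of each of the 10 plasma cell genes on the untreated and the ADR array of each lymphoma, 1 line per lymphoma; the dotted line is the table median of 4.43. Untreated and ADR values overlap for every gene, while Irf4, Ell2 and Prdm1 have lymphoma means that span 2 log2 units or more.

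Between lymphomas, Irf4, Ell2, Slamf7 and Xbp1 passed the F test of the same fit (adjusted p = 0.0113, 0.011, 0.0208 and 0.0408). This was 4 of the 9 tested, where 26.9% of all genes tested passed. At an unadjusted p below 0.05 there were 6 of 9, where 43.2% of all genes were found, and the lymphoma means of 3 of the 10 (Prdm1, Irf4 and Ell2) spanned at least 2 log2 units, as did those of 8.93% of all genes. The test uses the untreated and the ADR array of each lymphoma as its replicates; they share an animal, so it compares these 5 lymphomas and no condition. Prdm1 (0.0509) and Tnfrsf13b (0.0571) did not pass, and neither did Sdc1 (0.543), Creb3l2 (0.631) and Sec11c (0.534). Leaving out lymphoma_5783 ended the call of Slamf7 (0.573), leaving out lymphoma_1032 that of Ell2 (0.0521), and Xbp1 was lost without lymphoma_9250, lymphoma_1032 or lymphoma_4936 (0.121, 0.118 and 0.0545) and after another quantile normalization (0.0519). Over all settings the adjusted p ran from 0.00442 to 0.0357 for Irf4, 0.00521 to 0.0521 for Ell2, 0.0168 to 0.573 for Slamf7, 0.0133 to 0.121 for Xbp1 and 0.0233 to 0.137 for Prdm1.

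Promoter sequence is shown for the 4 genes that passed between lymphomas and for Prdm1. Prdm1 did not pass, but its lymphoma means spanned 3.48 log2 units. The 80 bases before the RefSeq transcript start (GRCm38.p6) are given 5′ to 3′ on the gene's strand, with CpG dinucleotides in capitals. The windows lie at chr10:44458749-44458828 (minus strand) for Prdm1, at chr11:5520561-5520640 (plus) for Xbp1 and at chr13:30749153-30749232 (plus) for Irf4. That of Ell2 lies at chr13:75707404-75707483 (plus) and that of Slamf7 at chr1:171649000-171649079 (minus). The starts used for Prdm1, Slamf7, Tnfrsf17, Tnfrsf13b and Creb3l2 lie inside the annotated span of the gene.
Prdm1: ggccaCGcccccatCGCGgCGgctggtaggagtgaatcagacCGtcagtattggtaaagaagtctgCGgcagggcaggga
Xbp1: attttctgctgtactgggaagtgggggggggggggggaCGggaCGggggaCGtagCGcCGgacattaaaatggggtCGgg
Irf4: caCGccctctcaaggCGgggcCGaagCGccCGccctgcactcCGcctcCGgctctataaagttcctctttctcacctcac
Ell2: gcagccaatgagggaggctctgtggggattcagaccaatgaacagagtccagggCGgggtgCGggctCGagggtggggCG
Slamf7: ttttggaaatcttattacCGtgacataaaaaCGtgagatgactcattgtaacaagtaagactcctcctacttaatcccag

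In these bases Slamf7 had 2 CpGs, Ell2 4, Prdm1 and Xbp1 6 each and Irf4 7. In the full window of 300 bases (250 before and 50 after the start) Ell2 had 23 CpGs, Prdm1 20, Irf4 11, Xbp1 10 and Slamf7 3, where the median of 32851 RefSeq windows was 7. Of the other genes with a window, Creb3l2 had 17, Sdc1 14, Tnfrsf13b 8 and Tnfrsf17 6. In these 9 windows, both strands were searched for an Xbp1 site (TGACGTGG), the Blimp-1 core (AAGTGAAA), an Ets-Irf type element (GGAANNGAA), an interferon response type element (GAAANNGAA) and the E-box CACGTG that Myc and Max bind. The interferon response type pattern can overlap the Blimp-1 core. The only match was the interferon response type in Tnfrsf17, on the opposite strand, present in 8.56% of all windows. It is in capitals in the stretch chr16:11313697-11313729 (plus strand), shown since it is the one match found.
Tnfrsf17: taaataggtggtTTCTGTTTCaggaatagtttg
The other patterns stood in 0.676% (Xbp1 site), 1.6% (Blimp-1 core), 8.24% (Ets-Irf type) and 7.15% (E-box) of all windows.

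Irf4, the factor that starts the plasma cell programme, separated the lymphomas into high and low ones. Without and with ADR, the signals were 9.45 and 9.17 in lymphoma_5783, 6.80 and 7.41 in lymphoma_7890, 8.27 and 8.46 in lymphoma_9250, 6.96 and 7.46 in lymphoma_1032 and 9.98 and 8.91 in lymphoma_4936. Lymphoma_4936 and lymphoma_5783 were high, lymphoma_9250 lay in between without overlap on either side, and lymphoma_1032 and lymphoma_7890 were low. The lymphoma means spanned 2.34, a 5.05-fold range, and 91.2% of the sum of squares of this gene lay between lymphomas. The change with ADR was -0.01 ± 0.69 (SD, n = 5; adjusted p = 0.991), with a lower signal in lymphoma_4936 (-1.07) and lymphoma_5783 (-0.28) and a higher one in the other lymphomas (0.19 to 0.61). Without lymphoma_4936 the mean change was 0.26. In bulk RNA, fewer cells with a transcript and less transcript per cell cannot be told apart. The second probe set of Irf4, with a mean signal of 6.30, had a change of -0.50 ± 0.64 and did not differ past the threshold between lymphomas (adjusted p = 0.567).

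Prdm1, whose product Blimp-1 ends the B-cell programme, was highest in lymphoma_1032, where Irf4 was among the lowest. The untreated and ADR signals were 7.11 and 7.59 in lymphoma_5783, 6.30 and 7.54 in lymphoma_7890, 5.65 and 6.07 in lymphoma_9250, 10.44 and 8.25 in lymphoma_1032 and 7.56 and 7.69 in lymphoma_4936. Lymphoma_1032 stayed above and lymphoma_9250 below the other lymphomas on both arrays, and of the 3 between them lymphoma_5783 overlapped with both others, while lymphoma_7890 lay below lymphoma_4936. The lymphoma means spanned 3.48, an 11.2-fold range. The gene was higher with ADR in 4 lymphomas, by 0.48, 1.24, 0.42 and 0.14 in lymphoma_5783, lymphoma_7890, lymphoma_9250 and lymphoma_4936, and lower in lymphoma_1032 (-2.20). In that pair 99.7% of the genes tested had a smaller change in size. With each array centred on its median the change there was -1.91. The mean change was 0.01 ± 1.30 (SD, n = 5), with an adjusted p of 0.995 in the limma fit, and 0.57 without lymphoma_1032. In the pair of lymphoma_1032, B-cell markers changed by -0.55, T-cell markers by -0.38 and dendritic cell markers by -0.28. Macrophage markers changed by 0.63, neutrophil markers by 0.90, pre-B cell markers by 0.29, fibroblast markers by 0.28 and NK-cell markers by 0.12. Of the neutrophil markers 2 of 8 passed the filter. The part of these cells in the Prdm1 change was not tested.

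Xbp1, the transcription factor of the secretory pathway, had signals (untreated and ADR) of 10.03 and 10.48 in lymphoma_5783, 10.49 and 11.21 in lymphoma_7890, 9.88 and 9.77 in lymphoma_9250, 11.19 and 10.98 in lymphoma_1032 and 10.31 and 10.26 in lymphoma_4936. Lymphoma_9250 was below all others on both arrays, and lymphoma_1032 and lymphoma_7890 overlapped at the top. The change was 0.16 ± 0.40 (SD, n = 5; adjusted p = 0.766), with 0.72 in lymphoma_7890, 0.45 in lymphoma_5783 and between -0.21 and -0.05 in the others. The mean was 0.02 without lymphoma_7890, 0.09 without lymphoma_5783 and 0.26 without lymphoma_1032. Its 3 other probe sets had mean changes of 0.15, 0.21 and 0.42. Spliced and unspliced Xbp1 transcripts were not told apart here. Ern1, which encodes the enzyme that splices Xbp1 RNA, was also highest in lymphoma_1032 (8.71, mean of both arrays, against 6.97 to 7.46; adjusted p = 0.00958 between lymphomas) and had a change of 0.03 ± 0.36 with ADR.

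Ell2, the elongation factor that promotes the secreted form of the heavy chain, had the widest range of the 10 genes. Its signals before and with ADR were 8.80 and 9.17 in lymphoma_5783, 8.73 and 9.30 in lymphoma_7890, 7.48 and 5.57 in lymphoma_9250, 10.80 and 10.91 in lymphoma_1032 and 10.10 and 9.39 in lymphoma_4936. Lymphoma_1032 was highest, then lymphoma_4936, then lymphoma_7890 and lymphoma_5783, which overlapped, and lymphoma_9250 was lowest. The lymphoma means spanned 4.33, a 20.1-fold range. The change with ADR was -0.31 ± 1.02 (SD, n = 5; adjusted p = 0.791); it was -1.92 in lymphoma_9250, and without that lymphoma the mean was 0.09. The other probe set named Ell2 was not above the table median on any array. Prdm1, Xbp1 and Ell2 had their highest mean in lymphoma_1032 and their lowest in lymphoma_9250.

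**Figure D2:**
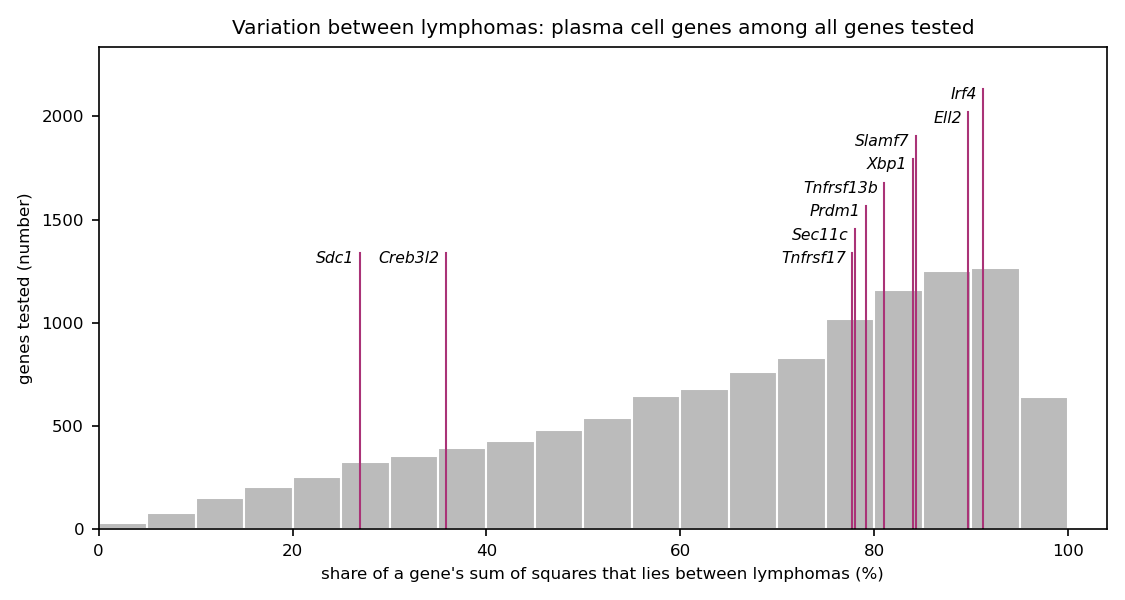
Histogram of all 11472 genes tested by the share of a gene's sum of squares over 10 arrays that lies between lymphomas (horizontal axis, %); lines mark the plasma cell genes, Tnfrsf17 included although it was not tested. Sdc1 (27.0%) and Creb3l2 (35.8%) lie low and the other 8 between 77.7% and 91.2%, where the median of all genes tested is 72.5%.

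Creb3l2, a membrane-bound factor that is cleaved in the Golgi, lay close to the table median. Its untreated signals ranged from 4.19 to 5.19 and its ADR signals from 4.58 to 5.28. It was above the median of the table on 9 of 10 arrays, and lymphomas next to each other in the order of their means overlapped, while lymphoma_7890 lay below lymphoma_9250 on both arrays. The change was 0.08 ± 0.56 (SD, n = 5; adjusted p = 0.924), and the second probe set, above the median on 3 arrays, had a change of -0.097.

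Tnfrsf13b (TACI) and Tnfrsf17 (BCMA), receptors for the survival factors BAFF and APRIL, had unlike patterns. Tnfrsf13b signals (untreated and ADR) were 10.08 and 10.55 in lymphoma_5783, 9.69 and 9.75 in lymphoma_7890, 9.99 and 9.98 in lymphoma_9250, 10.66 and 10.11 in lymphoma_1032 and 8.76 and 9.45 in lymphoma_4936. Lymphoma_4936 was below the others on both arrays, and lymphoma_5783 and lymphoma_1032 overlapped at the top. The change was 0.13 ± 0.48 (SD, n = 5; adjusted p = 0.843), and it was -0.01 without lymphoma_4936, 0.04 without lymphoma_5783 and 0.30 without lymphoma_1032.

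Tnfrsf17 was above the table median only in lymphoma_4936, at 4.63 untreated and 5.90 with ADR. The other lymphomas had 3.38, 4.11, 4.04 and 3.98 untreated (lymphoma_5783, lymphoma_7890, lymphoma_9250 and lymphoma_1032) and 3.73, 4.08, 3.49 and 3.79 with ADR. The lymphoma with a Tnfrsf17 signal over the median thus had the lowest Tnfrsf13b signal. The mean change of Tnfrsf17 was 0.17 ± 0.70 (SD, n = 5), and -0.10 without lymphoma_4936, where it was 1.27. Tnfrsf13c, the BAFF receptor, had levels between 7.90 and 8.93 (means of both arrays) and a change of -0.38 ± 0.73, with -1.30 in lymphoma_1032 and -1.01 in lymphoma_5783.

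Sdc1, the plasma cell surface proteoglycan CD138, had the largest mean change of the 10 genes. The untreated and the ADR signal were 7.08 and 8.46 in lymphoma_5783, 7.76 and 7.97 in lymphoma_7890, 7.60 and 6.97 in lymphoma_9250, 7.85 and 8.67 in lymphoma_1032 and 7.10 and 8.58 in lymphoma_4936. It was higher with ADR in 4 of 5 lymphomas and lower in lymphoma_9250, and the groups overlapped. The change was 0.66 ± 0.88 (SD, n = 5), a 1.58-fold difference with an adjusted p of 0.579, with leave-one-out means from 0.45 (without lymphoma_4936) to 0.98 (without lymphoma_9250). Of the sum of squares, 30.1% lay between treatments, where the median of the genes tested was 4.03%. Another Sdc1 probe set had a change of 0.69 ± 0.87, while the remaining ones had 0.26 ± 0.80 and 0.11 ± 1.18. The count of lymphomas with a higher signal depended on the probe set, with 4, 3 and 2 of 5 for these in turn. The last of them was lower with ADR in lymphoma_5783 (-0.32), lymphoma_7890 (-0.715) and lymphoma_9250 (-1.15). Fibroblasts express syndecans, and the fibroblast markers changed by 0.22 in lymphoma_5783, 0.28 in lymphoma_1032, 0.05 in lymphoma_4936, -0.03 in lymphoma_7890 and -0.05 in lymphoma_9250.

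Slamf7, a surface receptor of plasma cells, NK cells and macrophages, stood out in lymphoma_5783. Each pair of signals, untreated first, was 7.19 and 7.43 in lymphoma_5783, 5.79 and 5.69 in lymphoma_7890, 5.57 and 6.40 in lymphoma_9250, 5.17 and 5.97 in lymphoma_1032 and 6.10 and 5.95 in lymphoma_4936. Lymphoma_5783 was above all others on both arrays. Among the others, lymphomas next to each other in the order of their means overlapped, while lymphoma_7890 lay below lymphoma_4936 on both arrays. The change was 0.32 ± 0.47 (SD, n = 5; adjusted p = 0.625), with 0.83 in lymphoma_9250 and 0.80 in lymphoma_1032. The mean was 0.20 without either of these lymphomas in turn and at most 0.44 without another. The macrophage markers were highest in lymphoma_7890, where Slamf7 had a mean of 5.74. Of 6 NK-cell markers 1 passed the filter, and Ncr1, Klrk1, Eomes and Nkg7 were below the table median on all arrays. The part of these cells in the Slamf7 signal was not tested.

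Sec11c, a catalytic subunit of the signal peptidase that trims secreted proteins, was even across the arrays, from 10.59 to 10.96 untreated and from 10.50 to 10.76 with ADR. Its change was -0.06 ± 0.11 (SD, n = 5; adjusted p = 0.878). A second probe set with a mean signal of 5.74 differed between lymphomas (adjusted p = 0.0182), with a change of 0.006 ± 0.56. Sec11a, the other catalytic subunit, had lymphoma means of 10.14 to 10.62 and a change of 0.02 ± 0.11.

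**Figure D3:**
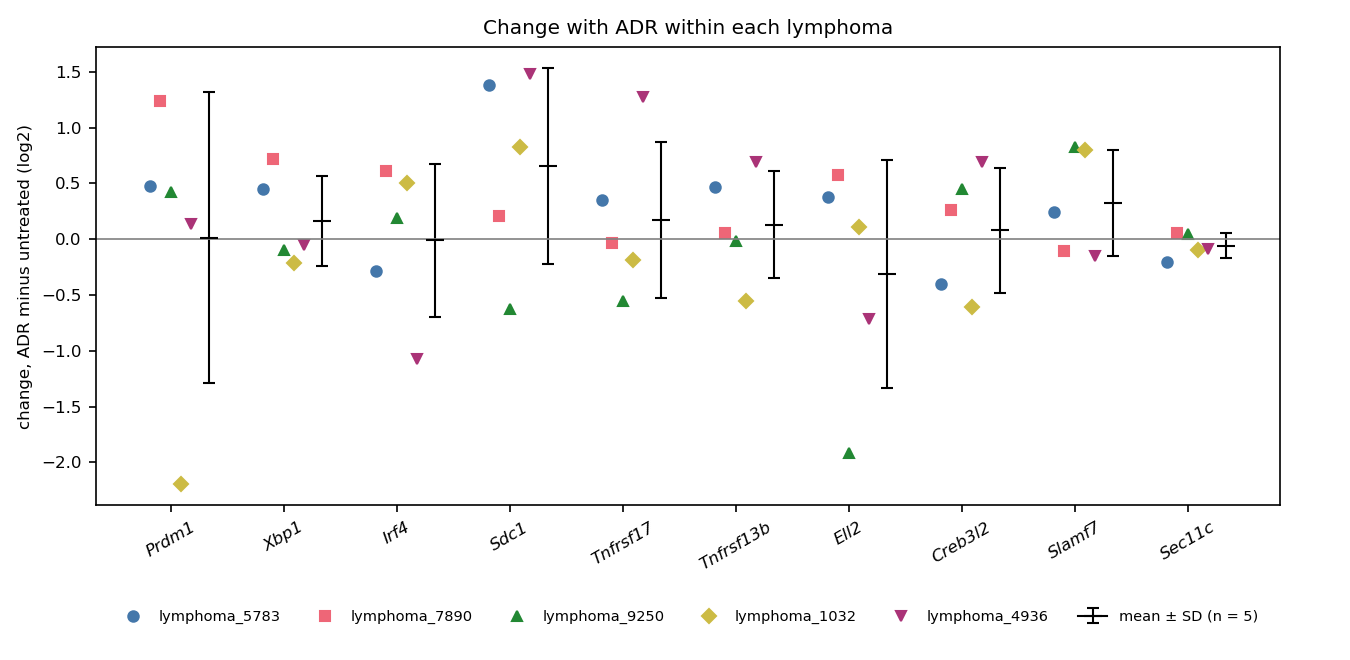
Change with ADR (log2, vertical axis) of each plasma cell gene in each lymphoma (coloured points), with the mean ± SD over the 5 lymphomas in black. The points lie on both sides of 0 for every gene, and the farthest are Prdm1 in lymphoma_1032 (-2.20) and Ell2 in lymphoma_9250 (-1.92).

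The order of the lymphomas was not the same for all 10 genes. Lymphoma_1032 had the highest mean for 5 of them (Prdm1, Xbp1, Sdc1, Tnfrsf13b and Ell2), where 23.6% of all genes tested were highest there. Lymphoma_9250 had the lowest mean for 4 (Prdm1, Xbp1, Sdc1 and Ell2), where 14.2% of all genes were lowest there. Lymphoma_4936 had the highest Irf4 and Tnfrsf17 and the lowest Tnfrsf13b, Creb3l2 and Sec11c. With ADR 8 of the 10 genes were higher in lymphoma_7890 and 7 in lymphoma_5783, against 5 in lymphoma_9250, 5 in lymphoma_4936 and 4 in lymphoma_1032. The median changes were 0.24, 0.37, 0.02, 0.04 and -0.14 in that order, where all genes tested had -0.010, 0.036, -0.024, 0.059 and -0.17. With each array centred, lymphoma_1032 was highest for 6 of the 10, where 33.9% of all genes tested were highest there.

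**Figure D4:**
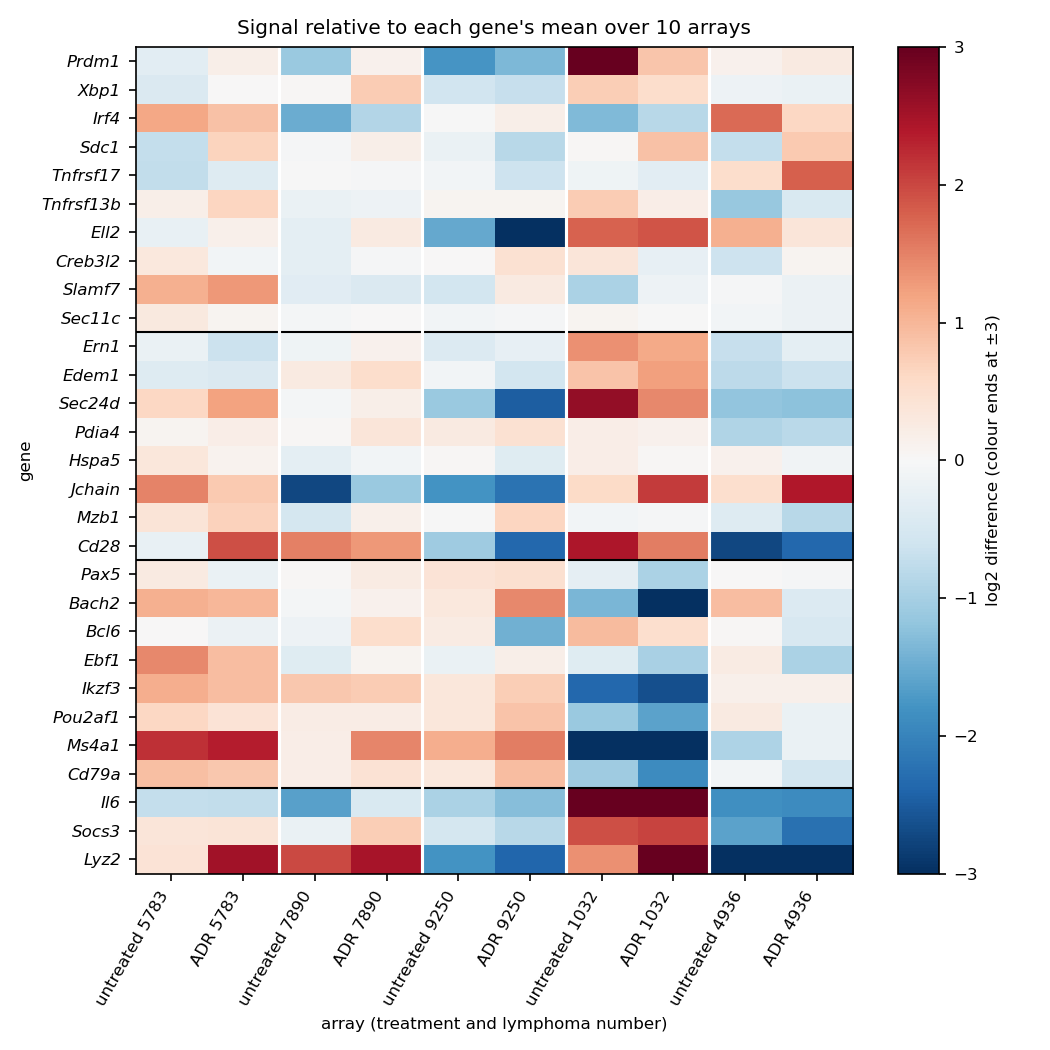
Signal of each gene relative to its own mean over the 10 arrays (colour, log2 difference, ending at ±3), with arrays in columns by lymphoma and treatment; from the top, the plasma cell genes, genes of the secretory pathway and plasma cells, B-cell regulators and markers, and Il6, its target Socs3 and the macrophage gene Lyz2. The columns of lymphoma_1032 are high for Prdm1, Ell2, Ern1, Il6, Bcl6 and Lyz2 and low for Irf4, Ms4a1, Ikzf3 and Bach2. Lyz2 is also high in lymphoma_7890.

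Related genes were read from 11 lists, in which no member passed the test with ADR (0 up and 0 down in each list in the limma fit). Of the B-cell regulators that plasma cells switch off, 6 of 12 tested were higher and 6 lower with ADR, with a median change of -0.09 and 1 gene at an unadjusted p below 0.05, where 8.48% of all genes were. In this list 6 of 12 differed between lymphomas, where 26.9% of all genes did, and 7 of 12 were lowest in lymphoma_1032, where 37.1% of all genes were; with each array centred these were 4 of 12 and 24.7%. Bach2, a repressor of Prdm1, had signals (untreated and ADR) of 8.95 and 8.87 in lymphoma_5783, 7.82 and 7.99 in lymphoma_7890, 8.18 and 9.31 in lymphoma_9250, 6.51 and 4.83 in lymphoma_1032 and 8.79 and 7.46 in lymphoma_4936. Lymphoma_1032, the lymphoma with the highest Prdm1, was thus the lowest for Bach2 on both arrays, and the 2 genes were both lower there with ADR. Pax5, the B-cell identity factor, had lymphoma means from 4.56 in lymphoma_1032 to 5.62 in lymphoma_9250 (adjusted p = 0.0832 between lymphomas). Bcl6, the germinal centre repressor, was highest in lymphoma_1032 (7.82 against 6.49 to 7.28; adjusted p = 0.254), unlike Bach2. Mitf, Spib, Ciita and Id3 differed between lymphomas (adjusted p = 0.00563, 0.0229, 0.0242 and 0.0266), with Mitf highest and Ciita and Id3 lowest in lymphoma_1032, and Spib lowest in lymphoma_4936. Mitf and Ciita were each above the table median on 8 arrays. Ciita had means near that median in lymphoma_1032 (4.35) and lymphoma_4936 (4.48).

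Among other plasma cell and antibody secretion genes, 5 of 15 were higher and 10 lower with ADR, the median change was -0.06 and 2 were at an unadjusted p below 0.05, where 8.48% of all genes were. Between lymphomas 8 of 15 differed, where 26.9% of all genes did. Jchain, which joins antibodies into polymers, had signals (untreated and ADR) of 9.17 and 8.46 in lymphoma_5783, 4.94 and 6.57 in lymphoma_7890, 5.90 and 5.47 in lymphoma_9250, 8.26 and 9.78 in lymphoma_1032 and 8.18 and 10.09 in lymphoma_4936. Jchain was low in lymphoma_7890 and lymphoma_9250 and high in the other lymphomas (adjusted p = 0.0135), and its change of 0.78 ± 1.25 had 3 of 5 lymphomas higher. Mzb1, an ER cochaperone of antibody secretion, had lymphoma means of 11.35 to 12.49 and a change of 0.24 ± 0.46. Cxcr4, which holds plasma cells in the bone marrow, Pou2af1, a B-cell coactivator, and the costimulatory receptor Cd28 also differed between lymphomas (adjusted p = 0.00501, 0.00955 and 0.0119). Cxcr4 and Pou2af1 were lowest and Cd28 was highest in lymphoma_1032.

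Of the Xbp1 and ER folding and export genes, 15 of 28 were higher and 13 lower with ADR, with a median change of 0.018 and 0 at an unadjusted p below 0.05. Between lymphomas 6 of 28 differed, a share of the list below the 26.9% of all genes. Of the 28, 16 were highest in lymphoma_1032, where 23.6% of all genes were, and with each array centred 21 of 28, where 33.9% were. Sec24d, a coat protein of vesicles that leave the ER, had lymphoma means from 5.32 in lymphoma_9250 to 9.16 in lymphoma_1032 (adjusted p = 0.00736). Edem1, of ER-associated degradation, had means from 8.13 in lymphoma_4936 to 9.89 in lymphoma_1032 (adjusted p = 0.00871). The disulfide isomerase gene Pdia4 was lowest in lymphoma_4936 (7.53 against 8.52 to 8.74; adjusted p = 0.0113). Hspa5, the ER chaperone BiP, spanned 11.68 to 12.10 and had a change of -0.17 ± 0.22. Of 11 signal peptidase and oligosaccharyltransferase subunits, 6 were higher and 5 lower with ADR, the median change was 0.016, and 1, Ostc, differed between lymphomas (adjusted p = 0.0499), where 26.9% of all genes did.

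In the families of the surface proteins, the SLAM list had 4 of 7 tested genes higher with ADR and a median change of 0.07, and 2 of 7 were at an unadjusted p below 0.05, where 8.48% of all genes were. Between lymphomas 6 of the 7 differed, where 26.9% of all genes did. Cd84, Slamf9, Cd48 and Slamf6 had adjusted p = 0.00161, 0.00591, 0.0107 and 0.0153 there. Cd48, a SLAM ligand, was higher with ADR in 5 of 5 lymphomas with a change of 0.45 ± 0.28, and had an adjusted p of 0.565. Cd84, Cd48 and Slamf6, like Slamf7, were highest in lymphoma_5783, and Slamf9 in lymphoma_1032. The syndecan list had 3 of 5 higher, a median change of 0.12, 1 at an unadjusted p below 0.05 and 2 that differed between lymphomas, against the same shares of all genes. These were Hpse, the heparanase gene, and Ext1, of heparan sulfate synthesis (adjusted p = 0.0013 and 0.00202). Hpse had a change of -0.60 ± 0.35 with lower signals in all 5 lymphomas and an adjusted p of 0.565. The BAFF and APRIL list had 3 of 7 higher with ADR and a median change of -0.04. Of the 7, 2 differed between lymphomas, where 26.9% of all genes did. They were the signalling adaptors Traf6 and Traf5 (adjusted p = 0.0185 and 0.0227 in the F test). Both were lowest in lymphoma_1032, where 37.1% of all genes were.

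Among the partners of the transcription factors, 8 of 14 Irf4-related genes were higher with ADR, with a median change of 0.002, 1 was at an unadjusted p below 0.05 (8.48% of all genes), and 5 of 14 differed between lymphomas, where 26.9% of all genes did. Ikzf3, the lymphoid factor Aiolos, had means of 8.17 to 9.02 in the other lymphomas and 5.52 in lymphoma_1032 (adjusted p = 0.000546). Batf and Jun, AP-1 factors of which Batf joins Irf4 on DNA, were highest in lymphoma_1032 (adjusted p = 0.00598 and 0.00927), and Ets1 was lowest there (0.0127). In the list of Prdm1 corepressors and inducers, 7 of 14 were higher with ADR, the median change was 0.003, and 6 of 14 differed between lymphomas, against the same 26.9%. Il6, a cytokine that induces Prdm1 through Stat3, had a mean of 11.47 in lymphoma_1032 and of 4.85 to 5.98 in the others (adjusted p = 0.000516), and its target Socs3 was also highest there (11.84 against 7.94 to 10.23; 0.00288). Stat5a was lowest in lymphoma_4936 and Il21r highest in lymphoma_1032 (0.0225 and 0.0227). Lyz2, a macrophage gene, had signals of 12.56 and 14.36 in lymphoma_1032. In lymphoma_7890 it had 13.19 and 13.66, and Il6 had 5.09 and 6.26. Mean levels in lymphoma_1032 were 7.40 for macrophage, 6.32 for fibroblast and 6.29 for neutrophil markers. In lymphoma_7890 they were 8.19, 5.55 and 4.58. The cell source of Il6 and its link to Prdm1 were not tested.

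The CREB3 family list had 5 of 6 tested genes higher with ADR, with a median change of 0.13, and 2 of 6 differed between lymphomas, where 26.9% of all genes did. These were Mbtps1, the Golgi protease that cleaves CREB3 proteins, and Creb3 (adjusted p = 0.029 and 0.0394), with Creb3 highest and Mbtps1 lowest in lymphoma_1032. The ELL and elongation list had 4 of 12 higher, a median change of -0.06, 2 at an unadjusted p below 0.05 (8.48% of all genes) and 3 of 12 that differed between lymphomas, against the same 26.9%. These were Aff4, a scaffold of the complex that holds Ell2, Hexim1, an inhibitor of elongation, and Mllt1 (adjusted p = 0.0104, 0.0242 and 0.0315). All 3 were lowest in lymphoma_1032, as were 6 of the 12 in the list and 37.1% of all genes; with each array centred these were 4 of 12 and 24.7%. Hexim1 was lower with ADR in all 5 lymphomas, with a change of -0.31 ± 0.16 and an adjusted p of 0.565. Myc had its lowest mean in lymphoma_1032 (9.46) and its highest in lymphoma_9250 (11.93), with an adjusted p of 0.00702 in the F test. This was the reverse of the order of Prdm1 at both ends. Of all genes tested, 37.1% were lowest in lymphoma_1032 and 23.3% highest in lymphoma_9250. The change of Myc with ADR was 0.35 ± 0.44. Transcripts of the Emu-driven and the endogenous Myc were not told apart here, and a link of Myc with Prdm1 was not tested.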

How the data were processed

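The authors' deposited table holds 1 log2 signal per probe set and array for 45101 probe sets on 10 Affymetrix arrays, for which RMA and Partek are named; those names come from the submitters' processing notes. The sources used here give neither settings nor versions nor a log base, so log2 was read from the range of the values. Of these probe sets 34945 had exactly 1 symbol in the platform annotation, 932 several and 9224 none; 18193 genes were covered. Levels of different probe sets were not compared. A gene was read from its probe set with the highest mean. The 11472 genes above the table median on at least 5 arrays entered a limma model (version 3.58.1, lmFit and eBayes, R 4.3.3) with treatment and lymphoma as terms. The ADR coefficient and an F test of the lymphoma terms were adjusted by Benjamini-Hochberg, two-sided for ADR, threshold 0.05. Same-numbered arrays come from 1 animal's lymphoma, per the labels; across genes, the 2 arrays of a lymphoma had deviations from their group means that correlated at 0.515 to 0.791. The number of arrays limits the precision. The fit was run on simulated arrays with planted changes. They were drawn independently around each gene's mean, without the likeness of paired arrays seen in these data. No result here rests on that run. Promoter windows are from RefSeq (9 of 10 genes matched, not Sec11c). The members, the 11 related lists and the 8 marker lists were chosen with earlier results of these data known. Named were the 10 genes, of each list up to 4 members past a threshold, ordered by p (with none past it, the 3 of smallest p), and 11 genes always named; others, with Ms4a1, Lyz2 and single list or marker genes given for their values, were chosen after their values were seen. Alternatives were no replicate block, other filters, probe sets, normalizations, priors, array weights and each lymphoma left out. Python 3.11.15, pandas 2.3.3 and matplotlib 3.10.9 were used.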

Additional observations from a re-analysis of the deposited data

Results flagged for a closer look

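In a check of 30 groups of 5 values (the untreated signals, the ADR signals and the changes of the 10 genes), 1 sample lay far from the others. It was the ADR signal of Tnfrsf17 in lymphoma_4936, at 5.901, where the other ADR arrays had 3.49 to 4.08; chance alone marks about 1 in 20 such groups.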

How the results depend on the processing

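With ADR, 0 of the plasma cell genes and 0 genes in all passed the threshold in the fit reported above and in each of the 13 other settings run, with no replicate block included (0 of 9 and 0 of 11472; adjusted p = 1.0 for each of the 9 when rounded). The changes of the plasma cell genes kept their sign in 109 of 126 comparisons with other settings or probe sets. Part of these comparisons could not reverse a sign. Dropping the block, another filter or another prior leaves a mean change as it is. Averaging probe sets does the same for a gene with 1 probe set. Irf4 turned to 0.008 after another quantile normalization, 0.109 with array weights and 0.070 with centred arrays. Creb3l2 turned to -0.009 when its probe sets were averaged and -0.097 with its other probe set, and Sec11c to 0.023 with centred arrays and 0.006 with its other probe set. Leaving out 1 lymphoma gave ranges of -0.075 to 0.252 for Creb3l2, -0.535 to 0.089 for Ell2, -0.166 to 0.255 for Irf4, -0.291 to 0.567 for Prdm1, -0.010 to 0.301 for Tnfrsf13b, 0.022 to 0.256 for Xbp1, 0.451 to 0.978 for Sdc1, 0.196 to 0.441 for Slamf7 and -0.086 to -0.020 for Sec11c. Between lymphomas, 4 of 9 plasma cell genes passed, 7 when the probe sets of each gene were averaged, and 3 to 5 when 1 lymphoma was left out. The count over all genes was 3089, and 1179 to 2796 when 1 lymphoma was left out, lowest without lymphoma_1032. Prdm1 passed in 8 of 13 settings. The causes were not tested.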
